A study of Mus musculus with 12 samples.

Results

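The 39 genes described here encode the actin cytoskeleton and its contractile machinery: actins, nonmuscle myosin, tropomyosins, calponins, crosslinkers, focal adhesion proteins and the small GTPases and kinases that act on them. They were picked by symbol from a table of 78317 mouse genes, each symbol matching a single gene identifier, and no measured value entered the rule. The set was, however, chosen with earlier results of these data known. RNA came from cultured 4T1 cells, which derive from a mouse mammary tumour and serve as a model of triple-negative breast cancer, and 4 groups of 3 biological replicates each were used. These were PBRM1 KO cells with 5 ng/ml TGFβ1 for 4 days, control cells with TGFβ1 at that dose and for that time, untreated PBRM1 KO cells and untreated control cells. All 4 groups share the 4T1 background and culture medium. The labels mark the untreated libraries as the starting time point, and no library is labelled as kept for 4 days without TGFβ1. Time in culture may therefore differ along with TGFβ1, and its part in the results was not tested. A rise, fall or response with TGFβ1 below means the difference between these groups. No source used here gives the site of the PBRM1 edit or whether the KO cells are 1 clone. PBRM1 is a subunit of the PBAF chromatin remodelling complex, and TGFβ1 is a cytokine that signals through receptor serine kinases and SMAD proteins.

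Actin monomers assemble into filaments that Ena/VASP proteins and formins elongate, that the Arp2/3 complex branches, and that α-actinins and filamins crosslink. Nonmuscle myosin II pulls on these filaments when its regulatory light chain is phosphorylated, a step that the GTPase RhoA drives through the kinases ROCK1 and ROCK2. Bundled filaments end in focal adhesions, where talin, vinculin, zyxin and paxillin tie them to integrins. Monomeric actin also holds the MRTF cofactors of the transcription factor SRF in the cytoplasm, so that assembly of filaments frees them to act at SRF sites, called CArG boxes, in the promoters of many actin genes. In epithelial and carcinoma cells TGFβ is known to increase stress fibres and smooth muscle α-actin.

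Counts were 3′ end counts, and each library held 9265693 to 11250850 of them, so a level in CPM, the count scaled to the library total, is a share of transcript ends and needs no correction for gene length. Of the 39 genes, 37 passed a filter on low counts. Pbrm1 itself was at 222 to 274 CPM in PBRM1 KO libraries with TGFβ1 and 276 to 292 CPM in control libraries with TGFβ1. Untreated, it was at 207 to 245 CPM in PBRM1 KO libraries and 258 to 328 CPM in control libraries, and a 3′ count does not test an edit elsewhere in the gene. All 5 epithelial markers were over 1 CPM, and their sum was lower with TGFβ1 without overlap. It was 1865 to 1964 CPM in PBRM1 KO libraries with TGFβ1 against 2125 to 2285 CPM untreated, and 1611 to 1856 CPM in control libraries with TGFβ1 against 2267 to 2353 CPM untreated. Of 5 smooth muscle markers, Smtn was over 1 CPM, whereas Myh11, Des, Lmod1 and Myocd had 2 to 8 counts in all 12 libraries together. The smooth muscle sum, almost all of it Smtn, was 179 to 234 CPM in PBRM1 KO libraries with TGFβ1 against 145 to 164 CPM untreated. In control libraries it was 191 to 204 CPM with TGFβ1 against 164 to 186 CPM untreated. Summed fibroblast markers reached 24.8 to 54.2 CPM in PBRM1 KO libraries with TGFβ1 and 29.6 to 93.8 CPM in control libraries with TGFβ1, against 25.1 to 35.0 CPM in untreated PBRM1 KO and 30.8 to 44.0 CPM in untreated control libraries. The epithelial sum rests mainly on Krt8 and Krt18, at 776 and 830 CPM on average over the 12 libraries. The fibroblast sum rests mainly on Col1a1 and Col1a2, at 21.3 and 13.6 CPM. The sums therefore do not show that a whole marker set moved, and the part of these shifts in the results was not tested. Leukocyte markers summed to at most 8.19 CPM and endothelial markers to at most 1.17 CPM in any library.

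With TGFβ1, 17 of the 37 tested genes rose and none fell when the response was averaged over both genotypes, in edgeR's quasi-likelihood test with a Benjamini-Hochberg adjusted p below 0.05 over all 14012 tested genes. The 17 are 45.9% of the genes tested here, where 15.1% of all genes tested were higher and 10.6% lower by the same rule. They were the actins Acta2, Actb and Actg1, the myosin II genes Myh9 and Myl12a, the calponin Cnn3, the crosslinkers Actn1 and Flna, and the small GTPase Rhob. The others were the filament-elongating factors Enah and Vasp, the adhesion proteins Tln1 and Zyx, and the LIM-domain genes Fhl2, Pdlim5, Pdlim7 and Lima1. The median log2 fold change was 0.20 over the 37 genes and 0.00 over all genes tested. The 39 genes together held 2.82 ± 0.201% of counts in PBRM1 KO cells with TGFβ1 and 2.54 ± 0.0904% in untreated PBRM1 KO cells (SD, n = 3 each). In control cells they held 2.78 ± 0.150% with TGFβ1 and 2.47 ± 0.0251% untreated. In bulk RNA, a change in the number of cells with a transcript and a change in its level per cell cannot be told apart.

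**Figure D1:**
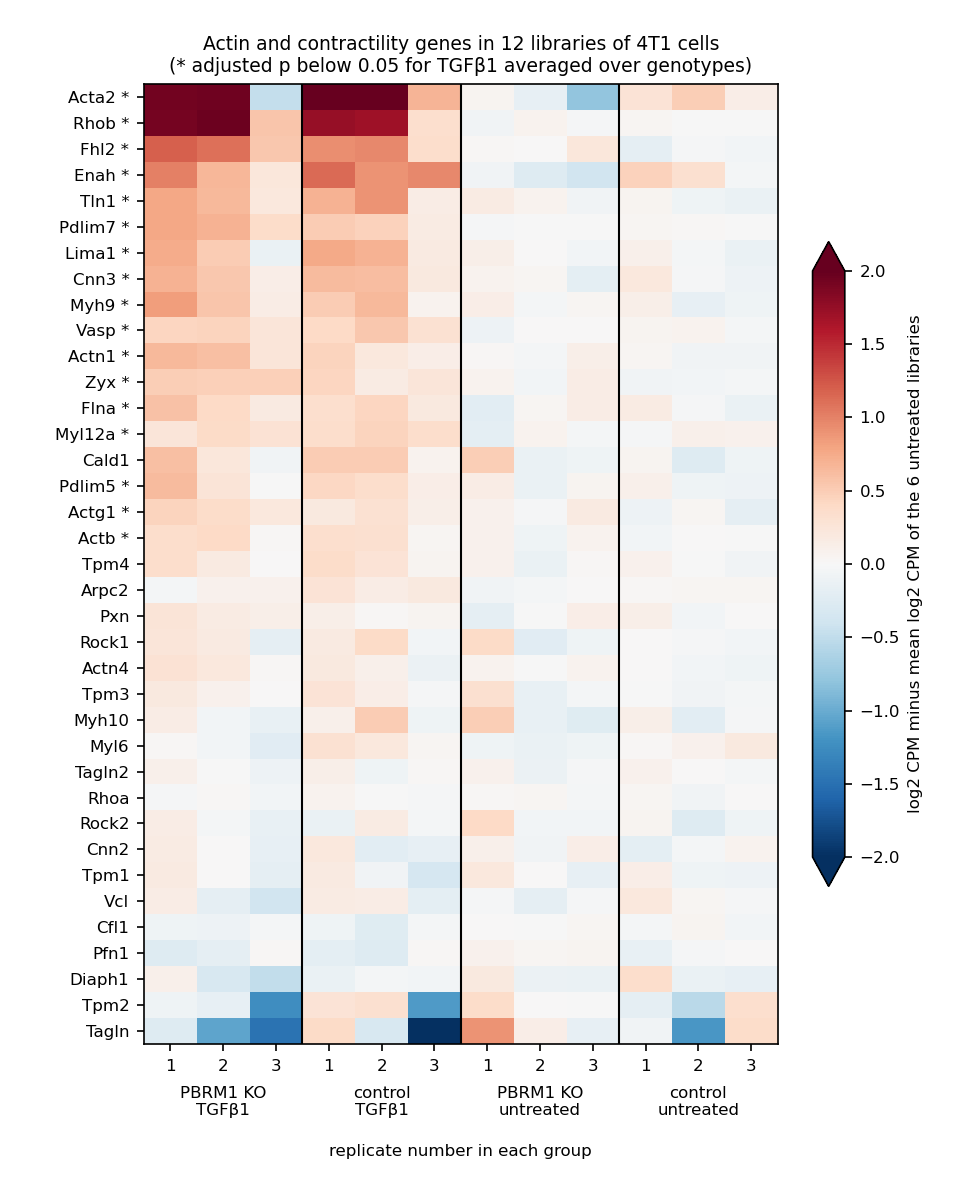
Level of the 37 tested genes in each of the 12 libraries (columns, by group and replicate number), as log2 CPM minus the mean log2 CPM of the 6 untreated libraries; red is higher, blue lower, and the scale stops at 2 and −2. Asterisks mark the 17 genes called for TGFβ1 averaged over genotypes, and the third TGFβ1 column of each genotype is paler than the first and second for most of them.

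The third replicate of both TGFβ1 groups stood apart from the other two. Over the 17 genes, replicate 3 showed a median of 30.7% of the rise of replicates 1 and 2 in PBRM1 KO cells, from −18.9% for Lima1 to 96.4% for Zyx. In control cells the median was 33.1%, from 4.26% for Acta2 to 89.4% for Enah. Replicate 3 lay below both other TGFβ1 libraries in 15 of the 17 genes in PBRM1 KO cells and 14 of 17 in control cells. The 17 genes were chosen by a call that used these same libraries. Whether other genes have similar medians and counts was not tested, so these values are not particular to the actin genes. Zyx and Myl12a were the genes at nearly full response in both, at 96.4% and 93.9% in PBRM1 KO cells and 79.3% and 86.5% in control cells. The labels give nothing that sets these 2 libraries apart. Without both, 20 of the 37 genes rose and Pfn1 and Cfl1 fell, where 22.1% of all genes tested were higher and 19.3% lower. With all libraries those shares were 15.1% and 10.6%, so the gain in calls without both was not particular to the actin genes. Averaged calls that differ without both libraries are given below with each gene.

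**Figure D2:**
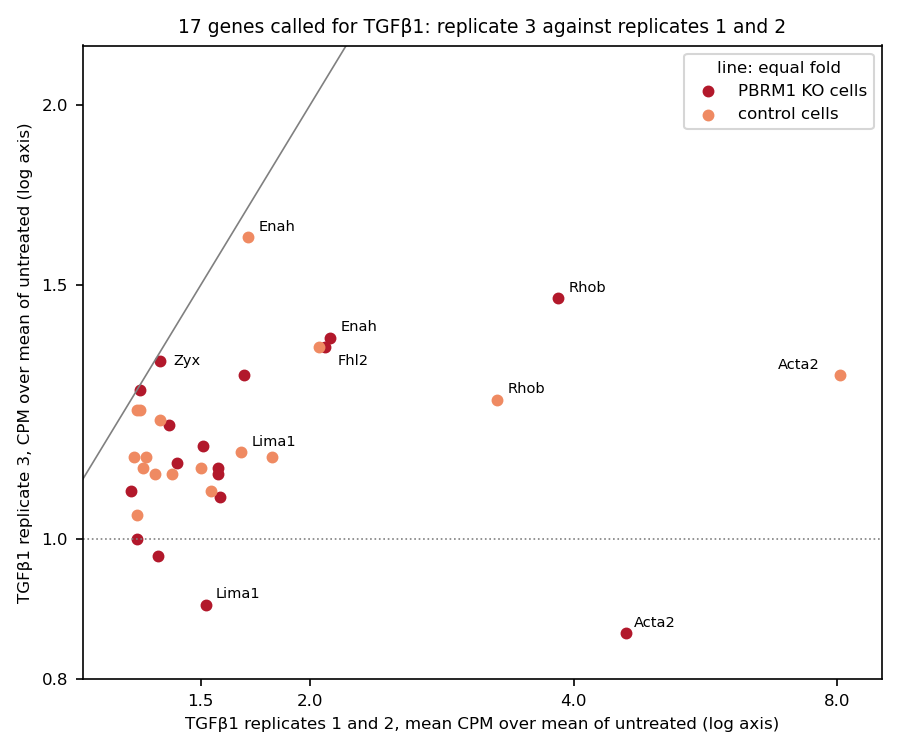
For each of the 17 genes called for TGFβ1 and each genotype, the CPM of TGFβ1 replicate 3 over the untreated mean (vertical, log axis) against that of replicates 1 and 2 (horizontal, log axis). Points under the solid line responded less in replicate 3, as Rhob and Acta2 do in both genotypes, and Zyx in PBRM1 KO cells lies next to the line.

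CArG boxes, the sites bound by SRF, were looked for as exact matches to CCWWWWWWGG, where W is A or T. The search covered the 250 bases before each RefSeq start site, on both strands, because many actin genes are SRF targets. Windows were found for 34 of the 39 genes in a RefSeq promoter table of build GRCm38.p6, which is not the mm39 build of the counts. A CArG box lay in a window of 7 genes (Fhl2, Myl9, Cnn2, Myl6, Actg1, Vcl and Lima1), and in 1.47% of the 32851 windows or 1.62% of the 27025 genes of the table. Fhl2, Actg1 and Lima1 were among the 16 genes that rose with TGFβ1 and had a window, Myl6, Cnn2 and Vcl did not pass the test, and Myl9 was too low to test. The sequences below show the box in capitals with up to 40 bases on each side, written 5′ to 3′ on the gene's strand, first for the 3 genes that rose and then for the other 4.
Fhl2, minus strand, chr1:43163962-43164032: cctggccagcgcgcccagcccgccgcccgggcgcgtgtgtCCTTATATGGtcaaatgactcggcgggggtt
Actg1, minus strand, chr11:120348536-120348625: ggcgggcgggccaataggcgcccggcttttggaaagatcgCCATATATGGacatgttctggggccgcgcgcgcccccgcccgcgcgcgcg
Lima1, minus strand, chr15:99820150-99820236: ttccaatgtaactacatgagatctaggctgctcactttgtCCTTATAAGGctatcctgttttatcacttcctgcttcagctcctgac
Myl6, minus strand, chr10:128493010-128493099: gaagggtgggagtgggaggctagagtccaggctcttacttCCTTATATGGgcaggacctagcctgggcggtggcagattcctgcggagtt
Cnn2, plus strand, chr10:79988504-79988593: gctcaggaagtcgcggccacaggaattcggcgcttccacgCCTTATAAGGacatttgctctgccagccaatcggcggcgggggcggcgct
Vcl, plus strand, chr14:20929148-20929220: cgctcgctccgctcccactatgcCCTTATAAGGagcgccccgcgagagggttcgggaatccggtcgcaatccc
Myl9, plus strand, chr2:156775263-156775352: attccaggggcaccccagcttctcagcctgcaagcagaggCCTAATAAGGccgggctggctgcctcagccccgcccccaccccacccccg

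The box of Fhl2 shown ended 22 bases before the start of that transcript, and a second Fhl2 start further upstream had another box 87 bases before it. In Lima1, Myl6, Cnn2 and Actg1 the boxes ended 38, 41, 47 and 81 bases before the start, and in Myl9 and Vcl 152 and 218 bases before it. Lima1, Cnn2 and Vcl carried the same letters in the box, and of them Lima1 rose with TGFβ1. The box of Fhl2 shown and that of Myl6 were also the same, and of these Fhl2 rose. The AP-1 motif TGANTCA was in 4 of the 34 genes and in 7.82% of all genes, the TEAD motif GGAATG in 10 and in 14.4%, and the SMAD motif CAGACA in 5 and in 19.3%. Acta2 had the TEAD and SMAD motifs and no exact match to the CArG pattern in this window. SRF sites that depart from the pattern by a letter were not searched for, so none can be called absent from Acta2. A match is a description of the letters and not of binding.

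Smooth muscle α-actin, Acta2, which marks myofibroblasts and contractile cells, had the largest fold change of the 37 genes at a very low level. It was at 4.27, 4.31 and 0.804 CPM in PBRM1 KO libraries with TGFβ1, against 1.16, 1.00 and 0.647 CPM in untreated PBRM1 KO libraries. In control cells it was at 13.5, 8.80 and 1.80 CPM with TGFβ1 and 1.36, 1.57 and 1.22 CPM untreated. The first and second TGFβ1 libraries of both genotypes were the highest, and replicate 3 lay inside the untreated range in PBRM1 KO cells and just above it in control cells. The averaged log2 fold change was 2.09 ± 0.49 (SE, adjusted p = 0.00721 by edgeR's quasi-likelihood test), and 2.55 ± 0.19 without both TGFβ1 replicate 3 libraries. By genotype it was 1.69 ± 0.74 in PBRM1 KO cells, which did not pass, and 2.49 ± 0.63 in control cells, which did. With the replicate number as a block, the PBRM1 KO value was 1.67 ± 0.43 and passed. These levels rest on 7 to 17 counts in each untreated library. The averaged call was lost with limma-voom, at 1.69.

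The cytoplasmic actins, which make up most cellular actin, moved little. Actg1, γ-actin, was at 3593, 3393 and 3031 CPM in PBRM1 KO libraries with TGFβ1 against 2808, 2585 and 2988 CPM untreated, and at 3006, 3242 and 2842 CPM in control libraries with TGFβ1 against 2447, 2701 and 2317 CPM untreated. The TGFβ1 and untreated libraries did not overlap within either genotype. The averaged log2 fold change of Actg1 was 0.26 ± 0.06 (adjusted p = 0.00625 by edgeR's quasi-likelihood test). Actb, β-actin, averaged 6220.0 ± 828 CPM in PBRM1 KO cells with TGFβ1 and 5264 ± 353 CPM untreated, and 6098 ± 684 CPM in control cells with TGFβ1 and 5098 ± 107 CPM untreated (SD, n = 3 each). Its averaged log2 fold change was 0.24 ± 0.07 (adjusted p = 0.0219 by edgeR's quasi-likelihood test). That call was lost when any one of 6 libraries was left out, namely replicate 1 or 2 of either TGFβ1 group, untreated control replicate 1 or untreated PBRM1 KO replicate 2, with the log2 fold change between 0.19 and 0.28 over all 12 omissions. Acta2 made up at most 0.141% of the counts of the 3 actins in any library. Fractional values occurred for Actb in 10 libraries and for Actg1 in 11, so how reads were split with related loci bears on both levels.

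Of the myosin II genes, a heavy and a light chain rose. Myh9, the heavy chain of nonmuscle myosin IIA, was at 541, 444 and 334 CPM in PBRM1 KO libraries with TGFβ1 against 333, 294 and 311 CPM untreated, and at 429, 476 and 319 CPM in control libraries with TGFβ1 against 328, 270.0 and 286 CPM untreated. Replicate 3 of control cells with TGFβ1 lay inside the untreated range, and the other 5 TGFβ1 libraries lay above the untreated libraries of their genotype. The averaged log2 fold change was 0.47 ± 0.11 (adjusted p = 0.00775 by edgeR's quasi-likelihood test), and 0.62 ± 0.07 without both TGFβ1 replicate 3 libraries. Within each genotype Myh9 passed with the replicate block and not without it. With the block it was at 0.46 ± 0.12 in PBRM1 KO cells and 0.46 ± 0.12 in control cells. Myl12a, a regulatory light chain of nonmuscle myosin, was at 1916, 2103 and 1983 CPM in PBRM1 KO libraries with TGFβ1 against 1421, 1699 and 1573 CPM untreated. In control libraries it was at 2066, 2200.0 and 2072 CPM with TGFβ1 against 1600.0, 1729 and 1716 CPM untreated. All 6 TGFβ1 libraries were above all 6 untreated ones, with a log2 fold change of 0.34 ± 0.06 (adjusted p = 0.000866 by edgeR's quasi-likelihood test). Fractional values for Myl12a occurred in each of the 12 libraries, and its level is uncertain to the extent that reads were split with its near-identical paralogue Myl12b. The heavy chain Myh10, of myosin IIB, and the essential light chain Myl6 did not pass, at 0.06 ± 0.13 and 0.05 ± 0.06. Myl9, the light chain typical of smooth muscle, had 0, 3 and 0 counts in PBRM1 KO libraries with TGFβ1 and 1, 4 and 0 untreated, and 5, 5.5 and 2 in control libraries with TGFβ1 against 3, 2 and 1 untreated. It was at or near 0 throughout and was not tested.

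Among filament-binding proteins, 1 calponin rose and no tropomyosin did. Cnn3, the acidic calponin of nonmuscle cells, was at 414, 371 and 279.7 CPM in PBRM1 KO libraries with TGFβ1 against 267, 261 and 222 CPM untreated. In control libraries it was at 396, 391 and 293 CPM with TGFβ1 against 296, 251 and 238 CPM untreated, so TGFβ1 replicate 3 lay inside the untreated range there and was above it in PBRM1 KO cells. Its averaged log2 fold change was 0.47 ± 0.10 (adjusted p = 0.00426 by edgeR's quasi-likelihood test), and its paralogue Cnn2 was at −0.03 ± 0.09. The smooth muscle calponin Cnn1 had 1, 0 and 2 counts in PBRM1 KO libraries with TGFβ1 and 3, 3 and 1 untreated, and 0, 1 and 1 in control libraries with TGFβ1 against 7, 1 and 1 untreated, and was not tested. The tropomyosins Tpm1, Tpm2, Tpm3 and Tpm4, which coat filaments and set which myosins and severing proteins reach them, were at −0.04 ± 0.09, −0.27 ± 0.25, 0.10 ± 0.08 and 0.20 ± 0.07. Without both TGFβ1 replicate 3 libraries Tpm1 was at 0.05 ± 0.08 and Tpm2 at 0.05 ± 0.15, the opposite sign for both. Tpm4 had an adjusted p of 0.0504 by edgeR's quasi-likelihood test. It passed with a 10 CPM filter, DESeq2, the replicate block or unrounded counts, and without TGFβ1 replicate 3 of either genotype or of both, at 0.27 ± 0.06 without both. The caldesmon gene Cald1, whose product holds myosin off tropomyosin-actin, was at 0.30 ± 0.13 and did not pass. Cald1 passed with the replicate block, at 0.30 ± 0.08, and with no filter on low counts. It also passed without TGFβ1 replicate 3 of either genotype or of both, at 0.43 ± 0.11 without both, and without untreated PBRM1 KO replicate 1, at 0.40. The transgelins, calponin-like bundling proteins, did not pass either. Tagln, typical of smooth muscle, was at 1.04, 0.598 and 0.447 CPM in PBRM1 KO libraries with TGFβ1 against 2.31, 1.36 and 1.11 CPM untreated, and at 1.62, 0.995 and 0.189 CPM in control libraries with TGFβ1 against 1.18, 0.553 and 1.60 CPM untreated. It thus lay lower with TGFβ1 in PBRM1 KO cells without overlap and overlapped in control cells, on 2 to 26 counts a library. Tagln2 was at 0.00 ± 0.06.

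Both crosslinkers that rose did so without overlap between the 6 TGFβ1 and the 6 untreated libraries. Actn1, α-actinin-1, which bundles filaments and docks them at adhesions, was at 1426, 1371 and 1072 CPM in PBRM1 KO libraries with TGFβ1 against 920.4, 882 and 981 CPM untreated. In control libraries it was at 1238, 1054 and 998 CPM with TGFβ1 against 937, 864 and 864 CPM untreated. The averaged log2 fold change of Actn1 was 0.38 ± 0.07 (adjusted p = 0.00219 by edgeR's quasi-likelihood test), and its paralogue Actn4 did not pass, at 0.11 ± 0.06. Without both TGFβ1 replicate 3 libraries Actn4 passed, at 0.18 ± 0.05. Flna, filamin A, which crosslinks filaments into networks, was at 476, 418 and 361 CPM in PBRM1 KO libraries with TGFβ1 against 275, 327 and 353 CPM untreated. In control libraries Flna was at 402, 429 and 365 CPM with TGFβ1 against 355, 312 and 291 CPM untreated, and the averaged log2 fold change was 0.35 ± 0.08 (adjusted p = 0.00635 by edgeR's quasi-likelihood test). Lima1, or EPLIN, which stabilizes filaments at junctions, averaged 33.0 ± 9.53 CPM in PBRM1 KO cells with TGFβ1 and 25.1 ± 1.56 CPM untreated, and 36.5 ± 7.40 CPM in control cells with TGFβ1 and 24.4 ± 2.08 CPM untreated (SD, n = 3 each). Its log2 fold change was 0.48 ± 0.13 (adjusted p = 0.0172 by edgeR's quasi-likelihood test), and 0.65 ± 0.07 without both TGFβ1 replicate 3 libraries, of which the PBRM1 KO one lay below all 3 untreated PBRM1 KO libraries.

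Enah and Vasp encode members of the Ena/VASP family, whose proteins hold the growing filament end open for new subunits. Enah, also called Mena, was at 54.3, 42.6 and 31.6 CPM in PBRM1 KO libraries with TGFβ1 against 25.6, 22.5 and 20.6 CPM untreated. In control libraries Enah was at 59.1, 50.5 and 52.4 CPM with TGFβ1 against 37.1, 33.6 and 26.3 CPM untreated, so TGFβ1 and untreated libraries were apart within each genotype. The averaged log2 fold change was 0.81 ± 0.12 (adjusted p = 0.000375 by edgeR's quasi-likelihood test). Vasp was at 258, 261 and 227 CPM in PBRM1 KO libraries with TGFβ1 against 179, 194 and 193 CPM untreated, and at 253, 278 and 237 CPM in control libraries with TGFβ1 against 200.4, 202 and 187 CPM untreated. All 6 TGFβ1 libraries of Vasp were above all 6 untreated ones, with a log2 fold change of 0.38 ± 0.06 (adjusted p = 0.000422 by edgeR's quasi-likelihood test). The other genes of filament turnover did not pass the averaged test. Pfn1, which feeds ATP-actin to growing ends, was at −0.14 ± 0.07, Cfl1, the severing protein cofilin, at −0.11 ± 0.05, Arpc2, a subunit of the Arp2/3 complex, at 0.12 ± 0.05, and Diaph1, a formin, at −0.17 ± 0.11. Pfn1 passed as lower with all libraries and the replicate block, at −0.14 ± 0.05. It also passed as lower when control TGFβ1 replicate 3, PBRM1 KO TGFβ1 replicate 3 or both were left out, at −0.24 ± 0.05 without both. Cfl1 passed as lower without both, at −0.15 ± 0.05.

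**Figure D3:**
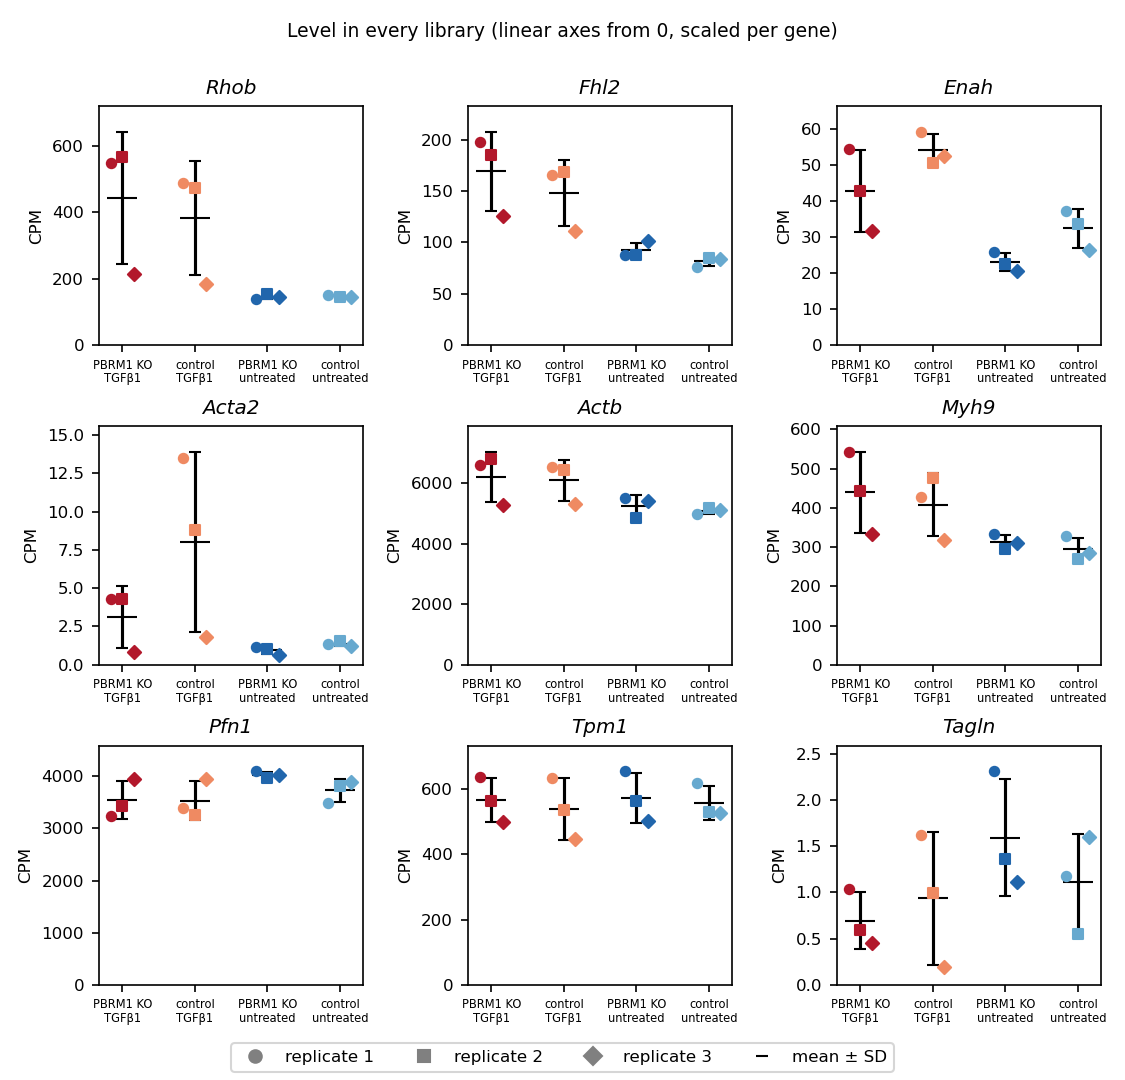
CPM of 9 of the genes in every library, with a mean and SD bar over the 3 libraries of each group; axes start at 0 and differ between panels. Rhob, Fhl2, Enah, Acta2, Actb and Myh9 are among the genes that rose with TGFβ1, whereas Pfn1, Tpm1 and Tagln did not pass the test.

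Of the focal adhesion genes, Tln1 and Zyx rose and Vcl and Pxn did not pass. Tln1, talin-1, which activates integrins and links them to actin, was at 111, 102 and 75.8 CPM in PBRM1 KO libraries with TGFβ1 against 73.3, 68.9 and 62.3 CPM untreated. In control libraries Tln1 was at 107, 123 and 72.3 CPM with TGFβ1 against 68.2, 61.8 and 59.6 CPM untreated. The groups did not overlap within either genotype, and the averaged log2 fold change was 0.58 ± 0.12 (adjusted p = 0.00335 by edgeR's quasi-likelihood test). Tln1 passed in PBRM1 KO cells with the replicate block, at 0.47 ± 0.11, and not without it. Zyx, zyxin, which gathers at strained stress fibres, was at 199, 195 and 195 CPM in PBRM1 KO libraries with TGFβ1 against 148, 135 and 156 CPM untreated. In control libraries Zyx was at 190.1, 158 and 166 CPM with TGFβ1 against 134, 135 and 138 CPM untreated. Every TGFβ1 library of Zyx, the third replicates included, was above every untreated one, with a log2 fold change of 0.37 ± 0.06 (adjusted p = 0.000827 by edgeR's quasi-likelihood test). Vcl, vinculin, was at −0.05 ± 0.09 and the scaffold Pxn, paxillin, at 0.11 ± 0.06.

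The LIM-domain genes Fhl2, Pdlim5 and Pdlim7 all rose. Fhl2, a LIM-only adaptor that moves between stress fibres and the nucleus, was at 198, 185 and 126 CPM in PBRM1 KO libraries with TGFβ1 against 88.1, 87.5 and 101 CPM untreated. In control libraries Fhl2 was at 165, 169 and 111 CPM with TGFβ1 against 76.2, 84.8 and 83.9 CPM untreated. All 6 TGFβ1 libraries were above all 6 untreated ones, with a log2 fold change of 0.86 ± 0.12 (adjusted p = 0.000246 by edgeR's quasi-likelihood test). Pdlim7, or Enigma, a PDZ-LIM protein of stress fibres, was at 109.5, 105 and 83.1 CPM in PBRM1 KO libraries with TGFβ1 against 63.2, 64.2 and 63.8 CPM untreated. In control libraries Pdlim7 was at 91.5, 88.5 and 71.8 CPM with TGFβ1 against 66.0, 65.0 and 63.7 CPM untreated, again with no overlap, and its log2 fold change was 0.50 ± 0.07 (adjusted p = 0.000459 by edgeR's quasi-likelihood test). Pdlim5, a PDZ-LIM protein that binds α-actinin, averaged 116 ± 26.3 CPM in PBRM1 KO cells with TGFβ1 and 95.0 ± 9.11 CPM untreated, and 115 ± 12.1 CPM in control cells with TGFβ1 and 91.3 ± 7.69 CPM untreated (SD, n = 3 each). Its log2 fold change was 0.30 ± 0.10 (adjusted p = 0.0346 by edgeR's quasi-likelihood test). That call was lost without any one of 8 libraries, namely replicate 1 or 2 of either TGFβ1 group or untreated replicate 2 or 3 of either genotype, with a log2 fold change between 0.21 and 0.35 over all 12 omissions.

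Among the small GTPases and kinases of the 39 genes, Rhob rose, and Rhoa, Rock1 and Rock2 did not pass. Rhob, a short-lived GTPase of endosomes that shares effectors with RhoA, was at 550.3, 568 and 214 CPM in PBRM1 KO libraries with TGFβ1 against 139.9, 153 and 144 CPM untreated. In control libraries Rhob was at 489.7, 474 and 185 CPM with TGFβ1 against 151, 146 and 145 CPM untreated. All TGFβ1 libraries were higher than all untreated ones, and the third replicates lay far below the other TGFβ1 libraries of their genotype. The averaged log2 fold change was 1.48 ± 0.24 (adjusted p = 0.000816 by edgeR's quasi-likelihood test), and 1.81 ± 0.05 without both TGFβ1 replicate 3 libraries. Rhoa stayed between 548 and 602 CPM in all 12 libraries, with a log2 fold change of −0.01 ± 0.05. Rock1 and Rock2, the kinases through which RhoA raises myosin activity, were at 0.11 ± 0.11 and −0.02 ± 0.09.

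Seen as shares within a family, Rhob made up 42.1 ± 12.4% of the counts of Rhoa and Rhob in PBRM1 KO cells with TGFβ1 and 20.1 ± 0.650% untreated (SD, n = 3 each). In control cells it made up 38.3 ± 11.8% with TGFβ1 and 20.4 ± 0.512% untreated. The lowest TGFβ1 library was at 24.7% and the highest untreated library at 21.0%, so the groups did not overlap. Actn1 was 73.5 ± 1.21% of both α-actinins in PBRM1 KO cells with TGFβ1 and 68.8 ± 0.725% untreated, and 72.0 ± 1.16% in control cells with TGFβ1 and 69.1 ± 0.487% untreated, with no TGFβ1 library as low as any untreated one. Cnn3 was 59.0 ± 2.30% of the calponins in PBRM1 KO cells with TGFβ1 and 49.7 ± 3.82% untreated, and 60.3 ± 4.04% in control cells with TGFβ1 and 52.6 ± 5.07% untreated, where the groups overlapped. Actg1 kept 35.0 ± 1.60% of the actins in PBRM1 KO cells with TGFβ1 and 34.7 ± 0.851% untreated, and 33.3 ± 1.70% in control cells with TGFβ1 and 32.8 ± 1.55% untreated, differences within 1 SD. These shares were not tested.

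**Figure D4:**
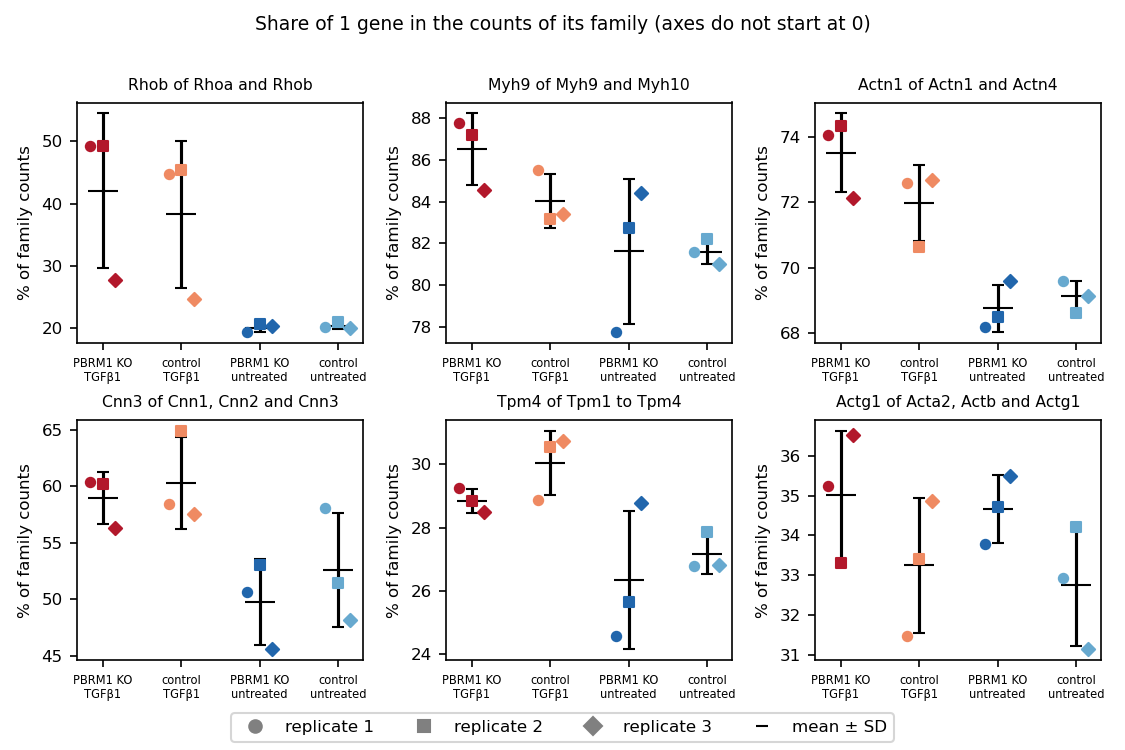
Share of 1 gene in the counts of its family in every library, in percent, with mean and SD bars over 3 libraries; the axes do not start at 0. Rhob and Actn1 have every TGFβ1 library above every untreated one, whereas the Actg1 share overlaps.

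Within 1 genotype, the TGFβ1 response gave fewer calls. In PBRM1 KO cells 10 of the 37 genes rose and none fell, against 7.65% of all genes tested higher and 3.72% lower. In control cells 9 rose and none fell, against 5.89% higher and 2.91% lower among all genes. At an unadjusted p below 0.05, 16 were higher and 1 lower in PBRM1 KO cells, where 27.2% of all genes passed in either direction, and 20 were higher and 0 lower in control cells, where 24.5% of all genes passed. Fhl2, Pdlim7, Enah, Myl12a, Zyx, Vasp and Rhob were called in both, which is 70.0% of the PBRM1 KO calls and 77.8% of the control calls. Actn1, Flna and Cnn3 were called in PBRM1 KO cells and not in control cells, and Tln1 and Acta2 the other way round, but no difference between genotypes passed a test of its own, as given below. With the replicate number as a block, Myh9, Tln1, Acta2 and Actg1 were added in PBRM1 KO cells for a count of 14, Actg1 at 0.24 ± 0.08. In control cells the block added Actn1, Cnn3, Myh9, Lima1, Pdlim5, Cald1 and Actg1, for a count of 16. Actn1 and Cnn3 thus passed in both genotypes with the block, at 0.30 ± 0.09 and 0.45 ± 0.08 in control cells. Flna still did not pass in control cells, at 0.32 ± 0.11. The share of all genes called higher also rose with the block in each genotype. The groups of libraries were apart with TGFβ1 higher for 13 genes in PBRM1 KO cells, where 16.1% of all genes were, and for 17 in control cells, where 14% were. They were apart with TGFβ1 lower for 4 genes in PBRM1 KO cells (Pfn1, Tpm2, Tagln and Cfl1), where 13.7% of all genes were, and for none in control cells, where 12.2% were. Between the 6 TGFβ1 and the 6 untreated libraries, 8 genes were apart with TGFβ1 higher, where 5.65% of all genes were, and none lower, where 3.92% were.

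Several of these calls within a genotype rested on single libraries. In PBRM1 KO cells Fhl2, Pdlim7 and Enah kept theirs without any one of the 6 libraries. Zyx lost its call without untreated replicate 2, Vasp without untreated replicate 1 or TGFβ1 replicate 2, and Myl12a without untreated replicate 1 or 3 or TGFβ1 replicate 2. Rhob lost it without untreated replicate 1 or TGFβ1 replicate 1 or 2, and Actn1 without untreated replicate 1 or 2 or TGFβ1 replicate 1 or 2. Flna and Cnn3 kept it only without TGFβ1 replicate 3. The count there ran from 4 to 17 over these omissions. In control cells Fhl2 alone kept its call without any one of the 6 libraries. Vasp lost it without untreated replicate 3 or TGFβ1 replicate 2, Enah without untreated replicate 2 or 3 or TGFβ1 replicate 1, and Zyx without any untreated replicate or TGFβ1 replicate 1. Pdlim7, Myl12a, Tln1, Acta2 and Rhob kept it only without TGFβ1 replicate 3, and the count ran from 1 to 16. No log2 fold change of a called gene changed sign. In the averaged test 15 of the 17 calls held without any one of the 12 libraries, the exceptions being Actb and Pdlim5.

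The responses of the 2 genotypes, which share no library, ran close to each other. Across the 37 genes, which are not independent replicates, the log2 fold changes correlated with Pearson's r = 0.875 and Spearman's coefficient = 0.913, and 31 had the same sign. Over all 14012 genes the values were 0.855 and 0.734, with 10974 of the same sign, and the libraries behind both responses were of similar depth and share replicate numbers. Pdlim7 was at 0.62 ± 0.11 in PBRM1 KO cells and 0.37 ± 0.11 in control cells, and Cald1 at 0.14 ± 0.18 in PBRM1 KO cells and 0.47 ± 0.18 in control cells, the widest gaps in either direction among the 34 genes at about 10 CPM or more. No gene passed the interaction of genotype and TGFβ1 by edgeR's quasi-likelihood test, where 0.0% of all genes were called in either direction. None of the 37 had an unadjusted p below 0.05, where 1.76% of all genes did, and the smallest was 0.109 for Pdlim7, whose interaction was 0.26 ± 0.15 (adjusted p = 1.00).

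**Figure D5:**
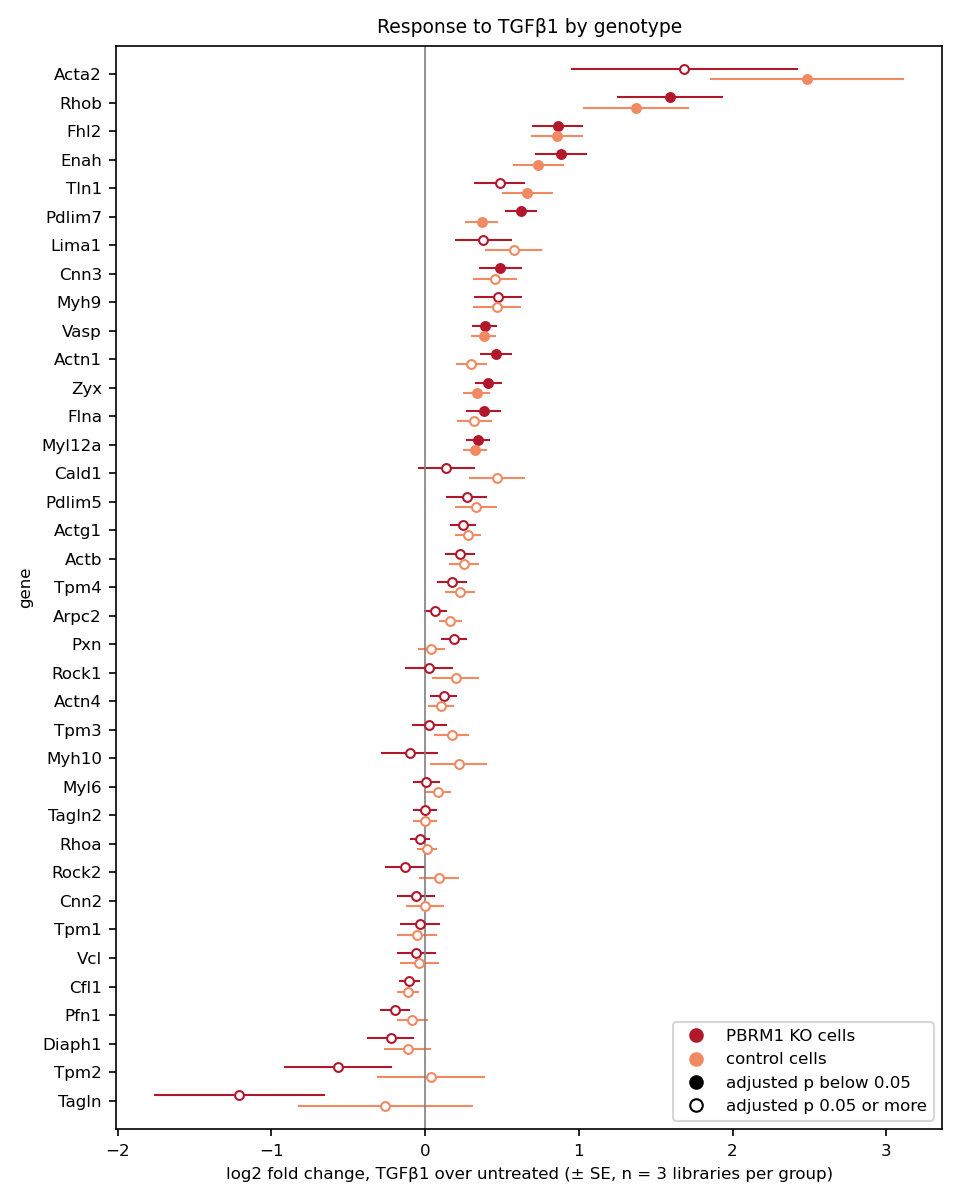
log2 fold change for TGFβ1 over untreated, with SE, for each of the 37 tested genes in PBRM1 KO cells (upper symbol of each row) and control cells (lower symbol); filled symbols have an adjusted p below 0.05. The intervals of the genotypes overlap for most genes, and Acta2 and Rhob lie furthest to the right in both.

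No difference between PBRM1 KO and control cells passed edgeR's quasi-likelihood test in any of the 37 genes. With TGFβ1, 0.0714% of all genes tested were higher and 0.2% lower, and untreated, 0.0428% were higher and 0.236% lower, so few calls were made for any genes. With the replicate block more were called, 0.35% higher and 0.778% lower with TGFβ1 and 0.278% higher and 0.749% lower untreated. None of the 37 was among them. At an unadjusted p below 0.05, Pdlim7 was higher and Acta2, Myl6 and Arpc2 lower in PBRM1 KO cells with TGFβ1, and Myl6 and Enah lower untreated. Those are 4 and 2 of 37 genes, against 8.52% and 7.6% of all genes. The DESeq2 and limma-voom fits also called none of the 37. The median SE of a genotype difference was 0.113 on the log2 scale both with TGFβ1 and untreated. The 34 genes at about 10 CPM or more differed by −0.35 (Enah) to 0.23 (Pdlim7) with TGFβ1 and by −0.50 (Enah) to 0.22 (Cald1) untreated.

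Acta2, Enah, Myl6 and Arpc2, chosen here after their values were seen, had lower fitted levels in PBRM1 KO cells in both conditions. Acta2 differed by −1.38 ± 0.56 with TGFβ1 (adjusted p = 0.501 by edgeR's quasi-likelihood test) and by −0.58 ± 0.84 untreated. Without both TGFβ1 replicate 3 libraries the value with TGFβ1 was −1.38 ± 0.23 and passed, from 4.27 and 4.31 CPM in PBRM1 KO libraries against 13.5 and 8.80 CPM in control libraries. With all libraries and the replicate block it was −1.34 ± 0.30 and just missed the threshold (adjusted p = 0.0518 by edgeR's quasi-likelihood test). Enah differed by −0.35 ± 0.16 with TGFβ1 and −0.50 ± 0.17 untreated (adjusted p = 0.437 untreated by edgeR's quasi-likelihood test). Each untreated PBRM1 KO library lay below each untreated control library. With the replicate block the untreated value of Enah was −0.49 ± 0.11 and did not pass (adjusted p = 0.0593 by edgeR's quasi-likelihood test). Myl6, the essential light chain of myosin, was at 1216, 1143 and 1020.0 CPM in PBRM1 KO libraries with TGFβ1 against 1472, 1379 and 1229 CPM in control libraries with TGFβ1. Untreated it was at 1121, 1090.0 and 1117 CPM in PBRM1 KO libraries against 1204, 1270.0 and 1363 CPM in control libraries. The genotypes did not overlap in either condition, with differences of −0.28 ± 0.09 and −0.21 ± 0.09 with TGFβ1 and untreated that did not pass (adjusted p = 0.276 and 0.569 by edgeR's quasi-likelihood test). Arpc2 differed by −0.17 ± 0.07 with TGFβ1 and −0.07 ± 0.07 untreated, also without overlap in either. Groups apart by genotype were seen for 2 genes higher (Pxn, Zyx) and 2 lower (Arpc2, Myl6) with TGFβ1, where 6.28% and 5.61% of all genes were, and for 2 higher (Fhl2, Pfn1) and 4 lower (Arpc2, Enah, Acta2, Myl6) untreated, where 6.95% and 8.71% were.

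Beyond the 39 genes, 8 lists of 168 other actin genes were counted in the averaged TGFβ1 response, of which 139 were tested, 38 were higher and 18 lower. Of all genes tested, 15.1% were higher and 10.6% lower, and 18 of 139 lower, 3 of 18 higher for Arp2/3 and 1 of 8 higher for PDZ-LIM genes, given below, are near these shares. SRF and its cofactors had 2 of 6 higher and none lower (median log2 fold change 0.12), namely the actin-binding cofactor Mrtfa at 0.47 ± 0.09 and the ETS cofactor Elk3 at 0.22 ± 0.05, while Srf was at −0.26 ± 0.12 and did not pass. Focal adhesion proteins had 8 of 25 higher, led by Arhgef7, Ptk2b and Tns3 at 0.58 ± 0.07, 1.25 ± 0.17 and 0.51 ± 0.07, and 3 lower, Tns2, Sorbs2 and Tns4 (median 0.11). Crosslinkers and membrane linkers had 8 of 22 higher, led by the ERM protein Msn at 0.47 ± 0.06, Marcksl1 at 0.70 ± 0.10 and Palld, palladin, at 1.11 ± 0.19, and 4 lower, led by Flnc at −1.27 ± 0.10, Anln at −0.55 ± 0.09 and Pls1 at −0.84 ± 0.16 (median 0.16).

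The remaining lists moved both ways. Formins, capping, severing and monomer-binding proteins had 6 of 24 higher and 6 lower (median 0.03). Tmsb4x, thymosin β4, which sequesters actin monomers, was at 3408 ± 809 CPM in PBRM1 KO cells with TGFβ1 and 1464 ± 182 CPM untreated, and at 4875 ± 1280.0 CPM in control cells with TGFβ1 and 1936 ± 305 CPM untreated (SD, n = 3 each). The formins Fmnl3 and Diaph2 rose by 1.00 ± 0.12 and 0.59 ± 0.13, while Fmnl2 and Diaph3, also formins, and Gsn, the severing protein gelsolin, fell, at −0.68 ± 0.09, −0.63 ± 0.10 and −0.33 ± 0.06. The Arp2/3 list had 3 of 18 higher, Cttn at 0.31 ± 0.05, Arpc5 at 0.24 ± 0.07 and Cyfip1 at 0.21 ± 0.07, and Wasf1 lower at −0.54 ± 0.12 (median 0.04). PDZ-LIM, LIM and FHL genes had 1 of 8 higher, Csrp2 at 1.70 ± 0.27, and 2 lower, Lmo7 at −1.50 ± 0.12 and Ablim1 at −0.41 ± 0.13 (median −0.11). Other actin isoforms and muscle contractile genes had 3 of 9 higher, Smtn at 0.29 ± 0.07, Myl12b and Ppp1r12b, and 2 lower (median 0.11). Those were Mylk, the kinase of the regulatory light chain, at −1.24 ± 0.29 and about 1 CPM, and Myh14, the heavy chain of nonmuscle myosin IIC, at −2.17 ± 0.26. Myh14 was at 4.42 ± 1.58 CPM in PBRM1 KO cells with TGFβ1 and 17.4 ± 4.46 CPM untreated, and at 2.46 ± 1.81 CPM in control cells with TGFβ1 and 12.7 ± 3.34 CPM untreated. Of the 56 calls in these lists, 40 held without any one of the 12 libraries. Those that did not include Tns2, Sorbs2, Tns4, Arpc5, Cyfip1, Ablim1, Myl12b and Ppp1r12b, and 0 list genes were called for genotype or interaction.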

How the data were processed

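Messenger RNA of 12 libraries was counted at the 3′ end after poly(dT) priming, with molecular identifiers used to remove duplicates, per the labels' protocols. The submitters' processing notes name build mm39, the trimmer fastp 0.24.0, the aligner STAR 2.7.11, the counter featureCounts with Subread 2.1.1, SAMtools 1.22.1, and edgeR 3.38.4. No source used here gives their settings or the annotation release. The authors deposited an estimated count for each gene and library, 91.8% of them whole (tolerance 0), and CPM, which per the file headers and values is the count over the library total. Of the 39 genes, 31 had a fractional count in at least 1 library and 10 in 10 or more, a sign of reads split between loci. The 92 spike-in entries held 0 counts.

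Counts were rounded, filtered with filterByExpr (14012 of 78317 genes), scaled by TMM and fitted in edgeR 4.0.16 (R 4.3.3) with 1 mean per group over all 12 libraries. The quasi-likelihood F test was two-sided, Benjamini-Hochberg adjusted over all tested genes and read at 0.05, with an SE of the absolute log2 fold change divided by the root of F. The common biological coefficient of variation was 12.5%. The procedure was tested on simulated data, and the outcome is not given here. CPM levels are of deposited counts. The genes, lists and tests were chosen with earlier results of these data known. Genes were named by a rule: values in every library for the 14 called genes with the smallest p and for untested ones, means or fold changes for the rest, and up to 3 genes per list and direction by p.

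The labels number biological replicates without saying what a number shares. Between TGFβ1 and untreated PBRM1 KO cells, libraries of one number deviated together from their group means, with correlations of 0.201, 0.139 and 0.202. Between both TGFβ1 groups these were 0.396, 0.416 and 0.726. Replicates 1 and 2 of different number also correlated between the TGFβ1 groups, at 0.323 and 0.221. Replicate 3 with 1 or 2 lay at −0.535 to −0.448, so a shared number cannot be told apart there from the difference of replicate 3. Each same-number value exceeds 0.1 and both contrasts count as paired, so blocked values stand beside results they change. Alternatives were RLE size factors, no filter, at least 10 CPM, DESeq2 1.42.0, limma-voom (limma 3.58.1), only a contrast's libraries, the block, unrounded counts, each library left out and both TGFβ1 replicate 3 libraries left out. Promoter windows came from RefSeq tables of build GRCm38.p6. One of the 8 further lists is counted in the totals and not reported here by itself.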

Additional observations from a re-analysis of the deposited data

How the results depend on the processing

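The count of 17 genes higher with TGFβ1 averaged over genotypes stayed between 15 and 20 under every alternative run. Other counts moved by more than 1.5 times. The 9 genes higher in control cells became 15 with no filter, 16 with the replicate block and 19 without both TGFβ1 replicate 3 libraries, and 1 to 16 with 1 library left out. The 10 higher in PBRM1 KO cells became 17 without both of those libraries and 4 to 17 with 1 left out. Genes lower were none in all comparisons, but in PBRM1 KO cells with TGFβ1 there were 2 with no filter (Tpm2, Tagln), 1 without both replicate 3 libraries and 0 to 1 with 1 left out (Pfn1). In the averaged response there were 1 with the block (Pfn1), 2 without both replicate 3 libraries (Pfn1, Cfl1) and 0 to 1 with 1 left out (Pfn1). For genotype, no filter gave 1 lower untreated (Enah) and 1 lower with TGFβ1 (Acta2), and leaving out both replicate 3 libraries gave 1 (Acta2). The cause of these moves was not tested.

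By replicate number, TGFβ1 and untreated PBRM1 KO libraries counted as paired, and so did both TGFβ1 groups. The same-number correlations were 0.258, −0.084 and 0.137 for TGFβ1 in control cells and 0.149, 0.069 and 0.125 for genotype untreated. Not all of these exceed 0.1, so those contrasts did not count as paired, which does not show that nothing is shared. The block gave an averaged count of 19, where 19.0% of all genes were higher against 15.1% without it. It changed no genotype or interaction call. For genes and contrasts called under at least 1 setting, 1048 log2 fold changes were recomputed, of which 885 kept their side of the threshold, 83 passed that had not, 80 no longer passed and none changed sign. Other values did change sign: without both TGFβ1 replicate 3 libraries the averaged value was 0.06 for Vcl, 0.05 for Tpm1, 0.05 for Tpm2, 0.03 for Cnn2 and 0.01 for Rock2, against −0.05, −0.04, −0.27, −0.03 and −0.02 with them, and Tagln in control cells was at 0.23 against −0.26. All 92 family shares moved by less than 1 SD when counts were rounded. Leaving out 1 library leaves 2 in its group. Fitting only a contrast's libraries was not possible for the averaged and interaction contrasts, which use all 12. Acta2, Tagln, Myl9 and Cnn1 are limited by depth, at 26 counts or fewer per untreated library.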
